A study of Mus musculus with 4 samples.

Results

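Flag-Nynrin ChIP peaks were examined at 52 nuclear genes for respiratory complexes II, III and IV, out of 21887 protein-coding genes. They were the protein-coding genes of mm10 whose symbols begin with Sdh followed by a, b, c or d, with Uqcr or Uqcc, or with Cox and a digit, together with Cyc1, Bcs1l, Ttc19, Surf1, Sco1 and Sco2. Of these, 8 belong to complex II, 14 to complex III and 30 to complex IV, and 30 encode subunits and 22 encode assembly factors. The chromatin came from lineage-negative bone-marrow cells, which are marrow cells depleted of mature blood lineages, from 8-week-old C57BL/6 mice transgenic for triple-Flag-tagged Nynrin (3xFlag-Nynrin-Tg). Nynrin is a protein with a NYN-type ribonuclease domain and an integrase-like region. The promoter that drives the transgene and whether animals were pooled are not given in the sources used here. There were 2 Flag ChIP libraries, each with its own peak list, and 2 input libraries that were not analysed here. All 4 libraries were of the same genotype, and no untagged cells or control antibody were used here. Positions are in mm10.

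Complex II, or succinate dehydrogenase, passes electrons from succinate to ubiquinone. Complex III passes them from ubiquinol to cytochrome c, and complex IV, cytochrome c oxidase, hands them to oxygen, and complexes III and IV pump protons as they do so. Complex II is made from nuclear genes alone, while complexes III and IV combine nuclear subunits with subunits encoded in mitochondrial DNA, which are cytochrome b in complex III and the core subunits COX1, COX2 and COX3 in complex IV. Their assembly needs separate factors that insert haem, copper, flavin and iron-sulfur clusters, and several complex IV subunits exist as alternative isoforms for heart and muscle, lung or testis.

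Outside the mitochondrial genome and unplaced sequence, there were 12702 peaks in replicate 1 and 25787 in replicate 2. Read totals are not part of a peak list, and the depth is therefore unknown. A gene was termed called when both lists had a summit, the highest point of a peak, no further than 1000 bp from a gene end. The fold enrichment of a peak is the authors' value for its summit over the background of the peak caller, and its percentile is its rank in its own list, in percent, with tied peaks at their mean rank. It is described within each list, and its size is not compared between lists. Peak lists of the Flag ChIP libraries alone were analysed, so no test between groups was made and no p-value is given. The share of all protein-coding genes scored the same way, 31.9% for called genes and 45.5% for a summit in replicate 2, is the background against which the counts below are read. Peaks do not measure expression, so the cell type could not be checked from them. Kit and Flt3, which mark progenitors, had summits in replicate 2 alone, and Cd34 and Ly6a had none within the window. Ptprc, which mature white cells carry too, was called, and of 7 markers of mature cells Itgam was called.

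Of the 52 genes, 33 were called (63.5%), while 31.9% of all protein-coding genes were. Replicate 1 had a summit at the same 33 genes, against 32.6% of all genes. Replicate 2 had one at 45 of the 52 (86.5%), against 45.5% of all genes. The 12 genes with a summit in replicate 2 alone made up 23.1% of the 52, against 13.6% of all genes, and no gene of the 52 had a summit in replicate 1 alone, against 0.672% of all genes. The remaining 7 genes had none in either list, and all 7 encode complex IV subunits.

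**Figure D1:**
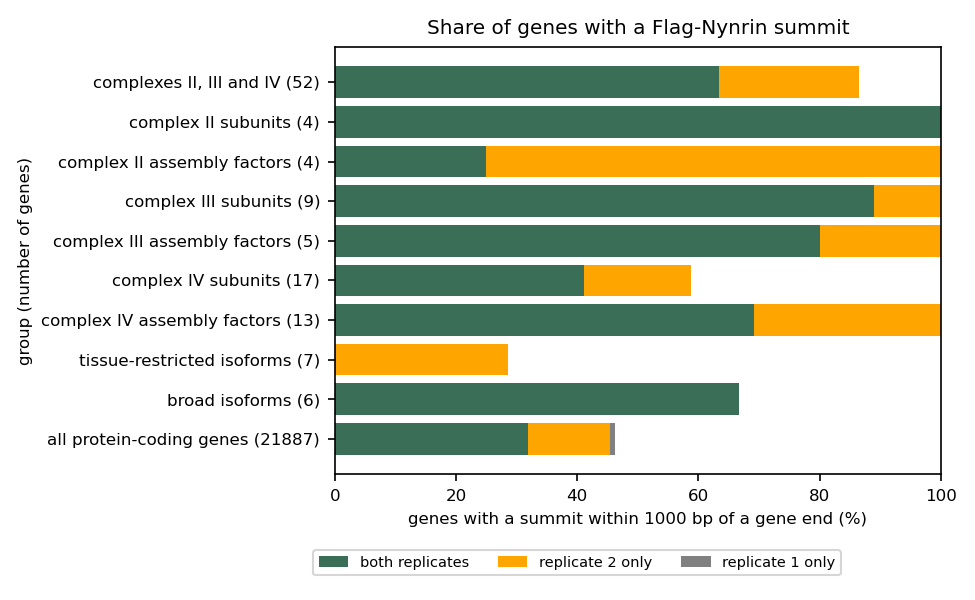
Share of genes with a summit within 1000 bp of a gene end, in percent on the horizontal axis, for each group of genes with its number in brackets. Green marks genes with a summit in both replicates, orange those in replicate 2 only and grey those in replicate 1 only. Complex II subunits reached 4 of 4, and tissue-restricted isoforms had no green bar.

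Promoter sequences of 9 of these genes are given for the motifs they carry and for the contrast between isoforms. Sequences are from RefSeq (GRCm38.p6, the assembly behind mm10), which matched 40 of the 52 genes. The others were Sdhc, Cyc1, Uqcrb, Uqcrc2, Uqcrq, Cox4i1, Cox4i2, Cox6a2, Cox6c, Cox8c, Cox17 and Cox18. Each sequence runs 5′ to 3′ on the strand of the gene, from 250 bases before the start site to 50 bases after it. Capitals mark matches on either strand to the motif of NRF1 (the one that stands 3 times in capitals at Sdha) and to those of ETS factors (CCGGAAG), YY1 (AANATGGCG) and the letters of the TATA box (TATAAA). The first group holds the highest-ranking called gene of each complex, with Sdha and Cox6a1 added for their repeated NRF1 matches.
Uqcrh (complex III, chr4:116075021-116075320, minus strand): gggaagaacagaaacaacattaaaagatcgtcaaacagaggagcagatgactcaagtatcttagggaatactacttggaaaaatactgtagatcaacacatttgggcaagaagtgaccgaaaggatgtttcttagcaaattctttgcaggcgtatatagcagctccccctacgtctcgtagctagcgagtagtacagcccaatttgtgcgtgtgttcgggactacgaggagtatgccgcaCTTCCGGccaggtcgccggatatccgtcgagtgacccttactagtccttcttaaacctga
Sdhaf2 (complex II, chr19:10525160-10525459, minus strand): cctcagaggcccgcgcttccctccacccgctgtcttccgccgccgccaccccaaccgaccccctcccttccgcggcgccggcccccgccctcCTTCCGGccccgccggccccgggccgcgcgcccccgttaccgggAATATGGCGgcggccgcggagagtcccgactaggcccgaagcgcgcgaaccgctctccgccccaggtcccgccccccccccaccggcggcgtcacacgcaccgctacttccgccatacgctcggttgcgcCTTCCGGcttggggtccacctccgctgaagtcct
Sdha (complex II, chr13:74350191-74350490, minus strand): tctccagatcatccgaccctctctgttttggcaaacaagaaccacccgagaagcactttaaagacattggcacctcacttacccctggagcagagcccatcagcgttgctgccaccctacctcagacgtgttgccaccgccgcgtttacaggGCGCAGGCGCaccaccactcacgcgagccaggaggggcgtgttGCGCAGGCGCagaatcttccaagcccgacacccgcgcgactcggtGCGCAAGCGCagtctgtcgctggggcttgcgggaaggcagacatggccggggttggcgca
Cox7a2l (complex IV, chr17:83514284-83514583, minus strand): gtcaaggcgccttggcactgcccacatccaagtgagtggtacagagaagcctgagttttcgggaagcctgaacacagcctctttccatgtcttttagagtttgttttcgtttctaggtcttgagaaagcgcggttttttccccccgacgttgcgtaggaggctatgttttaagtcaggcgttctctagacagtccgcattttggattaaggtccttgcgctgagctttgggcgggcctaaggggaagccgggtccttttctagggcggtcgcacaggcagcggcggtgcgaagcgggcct
Cox6a1 (complex IV, chr5:115348909-115349208, minus strand): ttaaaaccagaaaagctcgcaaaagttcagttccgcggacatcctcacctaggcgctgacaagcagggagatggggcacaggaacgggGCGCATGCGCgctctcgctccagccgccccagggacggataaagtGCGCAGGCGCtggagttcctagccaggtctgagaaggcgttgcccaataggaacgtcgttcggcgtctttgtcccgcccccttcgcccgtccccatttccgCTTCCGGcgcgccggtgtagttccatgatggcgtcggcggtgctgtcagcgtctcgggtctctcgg

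A second group sets tissue-restricted isoforms of complex IV beside their broadly expressed counterparts. The Cox8b and Cox7a1 products are the heart and muscle forms of subunits that Cox8a and Cox7a2 encode in most tissues.
Cox8b (no summit within the window, chr7:140900397-140900696, minus strand): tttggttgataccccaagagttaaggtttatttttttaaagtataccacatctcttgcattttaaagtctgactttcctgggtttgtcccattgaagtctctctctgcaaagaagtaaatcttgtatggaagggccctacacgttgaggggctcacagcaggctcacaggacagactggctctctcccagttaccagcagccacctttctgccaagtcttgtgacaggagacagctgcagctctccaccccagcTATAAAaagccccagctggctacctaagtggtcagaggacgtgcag
Cox8a (called, chr19:7217567-7217866, minus strand): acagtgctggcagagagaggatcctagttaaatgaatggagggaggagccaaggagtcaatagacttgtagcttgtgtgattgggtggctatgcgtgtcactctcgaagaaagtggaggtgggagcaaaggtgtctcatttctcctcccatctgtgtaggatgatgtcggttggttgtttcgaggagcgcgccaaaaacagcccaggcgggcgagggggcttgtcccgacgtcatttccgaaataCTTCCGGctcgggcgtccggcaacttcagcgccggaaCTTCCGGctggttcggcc
Cox7a1 (summit in replicate 2 alone, chr7:30183921-30184220, plus strand): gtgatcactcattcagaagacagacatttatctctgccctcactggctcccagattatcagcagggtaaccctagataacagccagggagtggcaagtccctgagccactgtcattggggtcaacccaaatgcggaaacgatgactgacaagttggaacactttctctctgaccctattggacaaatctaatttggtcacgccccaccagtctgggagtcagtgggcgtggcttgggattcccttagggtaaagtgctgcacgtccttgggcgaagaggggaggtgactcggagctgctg
Cox7a2 (peaks of both replicates at this start site, chr9:79759804-79760103, minus strand): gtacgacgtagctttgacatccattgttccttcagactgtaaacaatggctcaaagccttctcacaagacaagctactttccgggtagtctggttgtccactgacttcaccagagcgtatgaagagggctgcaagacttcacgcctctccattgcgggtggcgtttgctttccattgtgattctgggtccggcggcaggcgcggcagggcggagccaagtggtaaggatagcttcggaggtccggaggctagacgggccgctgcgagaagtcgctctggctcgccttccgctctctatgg

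All 4 subunit genes of complex II were called, against 31.9% of all protein-coding genes. Sdha, which encodes the flavoprotein that oxidises succinate, lies at 74322255 to 74350240 on chromosome 13 and was enriched 5.41-fold in replicate 1 and 8.50-fold in replicate 2. Its summits lay 1 and 37 bp downstream of the start site, next to the last of the 3 NRF1 matches printed above. Sdhb, the gene of the iron-sulfur subunit, had 3.34 and 9.83. Both membrane anchor genes were called as well, Sdhc with 3.85 and 6.02 and Sdhd with 2.92 and 10.6. The Sdhd peak stood low in replicate 1, above 7.3% of the peaks of that list, and high in replicate 2, above 96.2%. Its summits were nonetheless only 4 bp apart, so the lists shared the site but not its rank.

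Of the 4 complex II assembly genes, 1 was called (25.0%), against 31.9% of all genes. This was Sdhaf2, whose product helps attach flavin to Sdha. Sdhaf2 had 6.90 in replicate 1 and 7.71 in replicate 2, in peaks 2069 and 1659 bp wide. The other 3 genes (75.0% of the 4, against 13.6% of all genes) had a summit in replicate 2 alone. Fold enrichment there was 5.58 at Sdhaf1 and 5.05 at Sdhaf3, which both act in the maturation of Sdhb, and 3.71 at Sdhaf4, which acts on flavin-bound Sdha. In replicate 1 the nearest summits to Sdhaf3 and Sdhaf4 were 377340 and 500353 bp from the gene ends. Counting the replicate 2 list by itself, all 8 complex II genes had a summit, against 45.5% of all genes.

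Complex III had the highest share of called genes of the 3 complexes, 12 of 14 (85.7%), against 31.9% of all genes. Among its 9 subunit genes 8 were called. The highest ranking was Uqcrh, which encodes the hinge protein that helps cytochrome c1 bind cytochrome c. It was enriched 7.58-fold in replicate 1 and 11.5-fold in replicate 2, above 97.9% and 97.7% of the peaks of the lists. Uqcrq, a small subunit gene, had 6.13 and 10.3. The Rieske iron-sulfur protein gene Uqcrfs1 had 4.49 and 8.50, with summits 79 bp upstream and 47 bp downstream of the start site. Other small subunit genes were also called, Uqcr10 with 3.62 and 13.3, Uqcrb with 4.13 and 4.92, and Uqcr11 with 3.95 and 4.50. The peaks at Uqcrb and Uqcr11 thus stood near the middle of both lists.

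The core protein genes Uqcrc1 and Uqcrc2 were also called. Uqcrc2 was enriched 3.32-fold in replicate 1 and 6.69-fold in replicate 2. Uqcrc1 had 2.26 and 7.97, and its replicate 1 peak (−log10 q of 1.55) was among the weakest of that list, while its replicate 2 peak stood above 86.0% of peaks. The summits lay 2 and 63 bp downstream of the Uqcrc1 start site. Cyc1, which encodes cytochrome c1, had a summit in replicate 2 alone (fold enrichment 6.64, 152 bp from the lower-coordinate end of the gene). Its nearest replicate 1 summit was 5293 bp away, near an end of Maf1.

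Complex III assembly genes followed the subunits, with 4 of 5 called (80.0%), against 31.9% of all genes. Bcs1l, whose ATPase inserts the Rieske protein, was enriched 4.98-fold in replicate 1 and 9.58-fold in replicate 2. Ttc19, which maintains the finished complex, had 4.93 and 9.57. Uqcc1 and Uqcc2, which act together on newly made cytochrome b, were both called, Uqcc1 with 5.87 and 6.11 and Uqcc2 with 3.43 and 7.97. Uqcc3, which acts after them on cytochrome b, had a summit in replicate 2 alone (5.21).

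Complex IV had the lowest share, 16 of 30 called (53.3%), against 31.9% of all genes. The differences between the complexes were not tested. Among its 17 subunit genes, none of 7 tissue-restricted isoform genes was called, against 4 of 6 broadly expressed counterparts and 31.9% of all genes. With so few genes, the distance of these counts from the share of all genes was not tested. Cox6a1, Cox8a, Cox4i1 and Cox6b1 were the called genes among the counterparts. Subunit genes without such an isoform pair were called in 3 cases, Cox5b, Cox6c and Cox7c, and the remaining one, Cox5a, had a weak summit in replicate 2 alone.

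Cox6a2, the heart and muscle isoform gene, had no summit within 1000 bp, and the nearest ones lay 1956 bp from it in replicate 1 and 2053 bp in replicate 2. Its counterpart Cox6a1 was enriched 5.17-fold in replicate 1 and 8.77-fold in replicate 2, with summits 92 bp upstream and 78 bp downstream of the start site. Cox8b had none closer than 16564 bp in replicate 1 and 3116 bp in replicate 2, and the testis isoform gene Cox8c had none closer than 20673 bp in replicate 1 and 20812 bp in replicate 2. Cox8a, the counterpart of both, had 5.09 and 10.0. The lung isoform gene Cox4i2 had nearest summits 1697 and 1651 bp from it, and Cox4i1 had 4.87 and 8.77. These 3 contrasts all ran in the same direction, with the peak near the broadly expressed gene. The Cox4i1 summits were also within 1000 bp of Emc8 and Gm27021 in both lists, so that peak cannot be assigned to Cox4i1 alone.

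Other pairs were less clear. The testis isoform gene Cox6b2 had a weak summit in replicate 2 alone (fold enrichment 3.21). Cox6b1 had a weak peak in replicate 1 (2.92) and a peak near the middle of the replicate 2 list (4.59). Cox7a1 had 4.78 in replicate 2 alone, while Cox7a2 had no summit near either end of the gene. Neither the testis isoform gene Cox7b2 nor its counterpart Cox7b was called. Summits 3633 and 3723 bp from Cox7b lay near an end of the neighbouring gene Magt1. The genes nearest to the limit of the window were Cox20, 825 bp from its end in replicate 2, on the inside, and Cox4i2 on the outside.

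**Figure D2:**
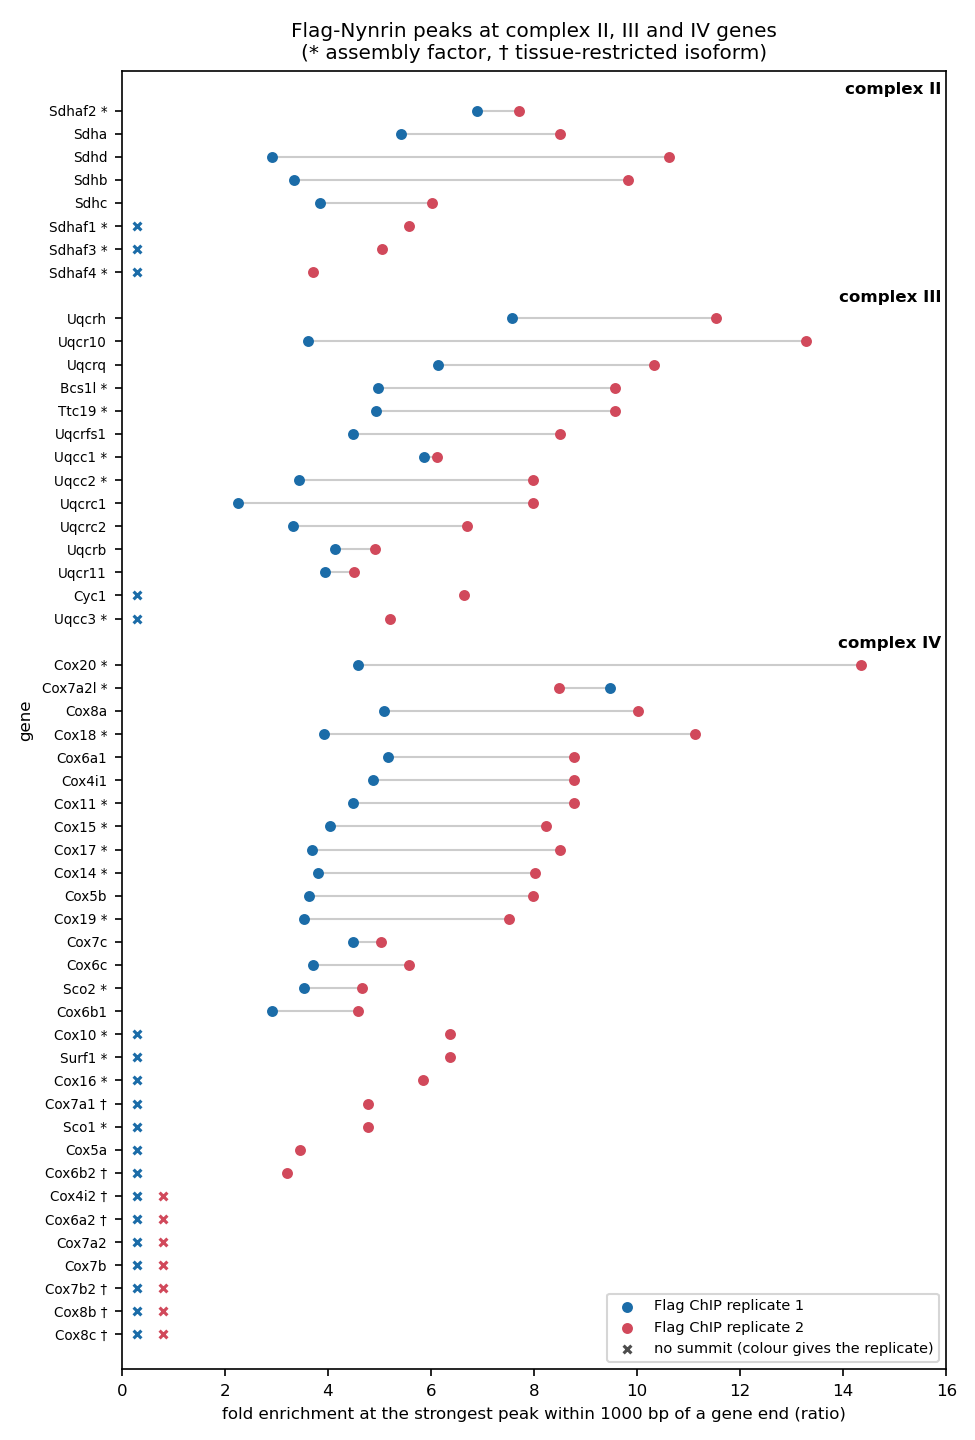
Fold enrichment of the strongest peak within 1000 bp of a gene end, as a ratio on the horizontal axis, for each of the 52 genes by complex, with replicate 1 in blue and replicate 2 in red. Crosses at the left mark genes without a summit in the replicate of that colour. Uqcrh reached 7.58 and 11.5, and only complex IV subunit genes carry crosses of both colours.

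Assembly factors of complex IV were called in 9 of 13 cases (69.2%), against 31.9% of all genes, and in replicate 2 all 13 had a summit, against 45.5%. Genes of copper handling among them are Cox17, Cox11, Cox19, Sco2 and Sco1, and of these only Sco1 was not called. Cox17, the copper chaperone gene, was enriched 3.70-fold in replicate 1 and 8.50-fold in replicate 2, with summits 10 bp apart, and Cox11 had 4.49 and 8.77. Cox19 had 3.54 and 7.51. Sco2, which delivers copper to the COX2 subunit, had 3.54 and 4.66, while its relative Sco1 had a summit in replicate 2 alone (4.78).

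For haem A, Cox15, the haem A synthase gene, was called with 4.04 and 8.24, whereas Cox10, whose enzyme catalyses the preceding step, had a summit in replicate 2 alone (6.38, 49 bp upstream of the start site). Among factors for the COX2 subunit, Cox18 had 3.93 and 11.1 and Cox20 had 4.58 and 14.3, the highest fold enrichment of the 33 called genes in replicate 2. Cox16 had 5.85 in replicate 2 alone. Surf1, an assembly gene mutated in human Leigh syndrome, had 6.38 in replicate 2 alone, where the summit was 50 bp from the end of its neighbour Surf2. Cox14, which acts in COX1 synthesis, had 3.81 and 8.03. Cox7a2l, studied as an assembly gene for supercomplexes of complexes III and IV, had 9.48 in replicate 1 and 8.48 in replicate 2. The replicate 1 value was the highest fold enrichment of the 33 called genes in that list.

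Across all 3 complexes, 19 of 30 subunit genes (63.3%) and 14 of 22 assembly genes (63.6%) were called, against 31.9% of all genes. In the replicate 2 list, counted by itself, all 22 assembly genes and 23 of the 30 subunit genes had a summit, against 45.5% of all genes. The 12 genes with a summit in replicate 2 alone had a median fold enrichment of 5.13 there, against 8.48 for the 33 called genes, and their peaks were narrower, with a median of 730 bp against 1163 bp. Such a difference also held over all protein-coding genes, where genes in replicate 2 alone had 4.78 and called genes 7.94.

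The called genes were not stronger than other called genes in both lists. Their median fold enrichment stood above 50.2% of peaks in replicate 1 and 88.2% in replicate 2, against 58.9% and 85.4% for all called genes. When each peak needed a −log10 q of 5 or more, 24 of the 52 genes were called (46.2%), against 21.1% of all genes. A fold enrichment of 5 or more in each list left 8 (15.4%), against 9.52%. The 8 were Sdha, Sdhaf2, Uqcrh, Uqcrq, Uqcc1, Cox6a1, Cox8a and Cox7a2l. Limiting the window to 500 bp left 31 genes (59.6%), against 27.9%, and widening it to 3000 bp gave 36 (69.2%), against 36.8%. Requiring the peaks to overlap at the same gene end left all 33, against 31.6% of all genes. Cutting replicate 2 to the 12702 peaks of replicate 1 left 31, against 30.0%, and summits within 200 bp of each other 27 (51.9%), against 24.5%.

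The series is described as one of promoter binding sites, so the summits were placed relative to annotated start sites, which the RefSeq promoter table gives with strand for 40 of the 52 genes. Within 1000 bp of a start site, 27 of the 40 (67.5%) had a summit in both lists, against 34.5% of the 17492 protein-coding genes in the table. All 25 called genes in the table were among them. Their summits lay a median of 75 bp from the start site in replicate 1 and 78 bp in replicate 2, against 128 and 120 bp for all called genes. Summits lay downstream of the start site in 10 of the 25 genes in replicate 1 (40.0%) and in 12 in replicate 2 (48.0%). For all called genes the shares were 40.8% and 38.9%, so summits fell on both sides of the start site in either set.

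Cox5a and Cox7a2 were added by this scoring, and both are subunit genes of complex IV. The annotated bounds of Cox5a reach 3904 bp upstream of the tabled start site. A peak at that site had a fold enrichment of 7.53 in replicate 1 (chr9:57520655-57521545) and 8.77 in replicate 2 (chr9:57520931-57521770). It stood above 97.8% and 90.0% of the peaks of the lists, with summits 11 bp upstream and 108 bp downstream of the start site. For Cox7a2 the bounds reach 11569 bp upstream of the tabled start site. Replicate 1 had a pair of peaks there, with fold enrichments of 3.86 and 4.26, and a single replicate 2 peak (7.21) overlapped both. Measured at start sites, the isoform pair Cox7a1 and Cox7a2 thus had a summit in replicate 2 alone at the heart and muscle gene and peaks in both lists at its counterpart. When a start site was accepted beside either gene end, 35 of the 52 genes were called (67.3%), against 34.7% of all genes, and 18 of 30 complex IV genes. Of the 7 tissue-restricted isoform genes, 4 have a tabled start site and none of these 4 was gained, while Cox4i2, Cox6a2 and Cox8c could not be scored this way.

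**Figure D3:**
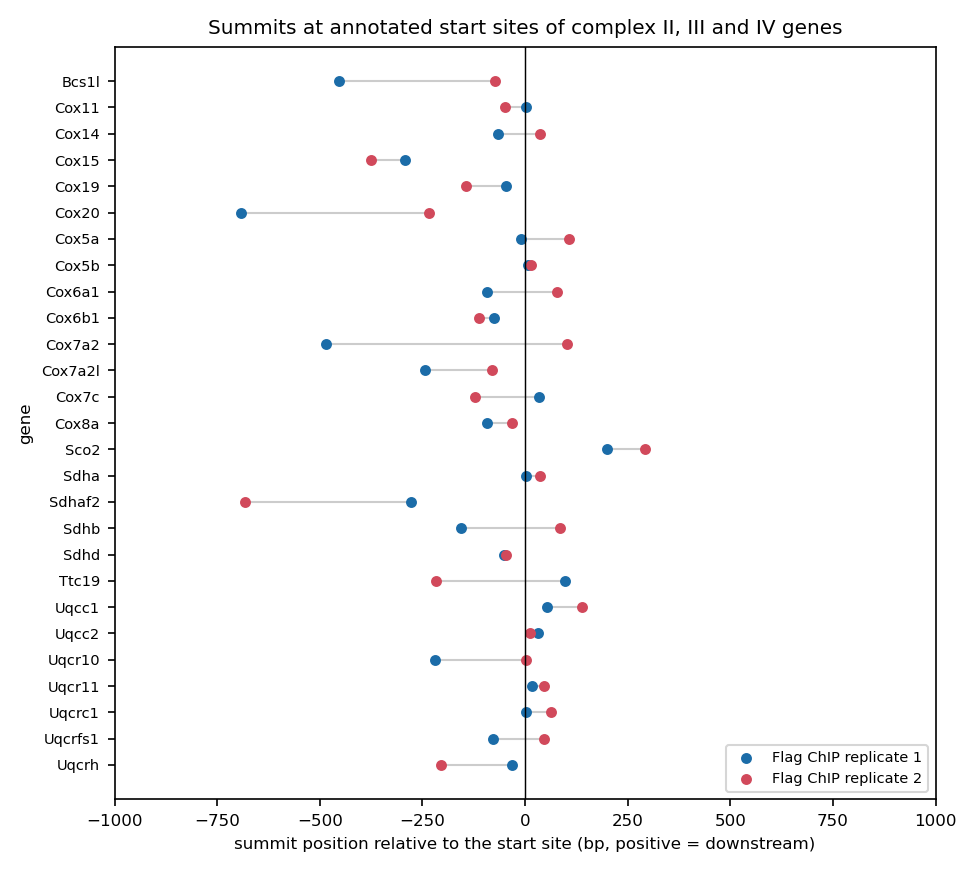
Summit position relative to the annotated start site, in bp with downstream positive, for the 27 genes with a summit within 1000 bp of it in both lists, with replicate 1 in blue and replicate 2 in red. Most points lie close to 0, and the widest gap between replicates is at Cox7a2.

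The replicates placed their summits close together at the called genes. The strongest peaks of the lists overlapped at 33 of 33 genes, against 96.9% of all called genes. Summits were a median of 85 bp apart, against 106 bp, and within 200 bp at 27 of the 33 (81.8%), against 73.7%. The largest gaps were at Cox20 (458 bp), Sdhaf2 (405 bp), Bcs1l (379 bp) and Ttc19 (313 bp). The last 3 of these genes have a neighbour that starts close by on the other strand. Genes with small gaps have such a neighbour too, among them Sdhd (4 bp), Sdha (36 bp) and Cox11 (50 bp). A link between gap and neighbour was not tested.

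Many of the genes shared their peak with a neighbour. Both summits were also within 1000 bp of another protein-coding gene at 15 of the 33 called genes (45.5%), against 31.4% of all called genes, and such a peak cannot be assigned to one of the genes. Divergent neighbours, whose start sites lie back to back within 1000 bp, were found for 10 of the 40 genes with a tabled start site (25.0%), against 8.48% of all genes in the table. Of these 10 genes, 9 were called (90.0%), against 79.8% of all genes with a divergent neighbour, which is a difference of about 1 gene. Of the 30 without one, 16 were called (53.3%), against 28.6% of all such genes.

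The closest pair was Cox15 with Cutc, whose start sites are 23 bp apart. Sdhaf2 and Cpsf7 are 35 bp apart, Sdhd and the import gene Timm8b 52 bp, Cox11 and Stxbp4 76 bp, Sdha and Ccdc127 77 bp, and Ttc19 and Zswim7 78 bp. In the wider pairs, Uqcrh starts 199 bp from Lrrc41, Bcs1l 261 bp from Zfp142 and Uqcr10 312 bp from Zmat5. In these 9 pairs both partners were called. Sco1 and Adprm, 52 bp apart, made the remaining pair, and neither was called. With start sites this close, a summit within 1000 bp of one partner mostly lies within 1000 bp of the other. Agreement between partners therefore largely follows from the scoring rule. Counting only summits near a single gene, 18 of the 52 genes were called (34.6%), against 21.7% of all genes.

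Promoter composition and motifs were compared next. The median GC content of the promoter windows was 60.3% at called genes of the 3 complexes, against 61.7% at all called genes. At genes not called it was 57.2%, against 53.3% at all genes not called. Genes not called include those with a summit in replicate 2 alone. These made up 11 of the 15 genes of the 3 complexes that have a promoter window and were not called. Over all 21887 protein-coding genes, 2973 had a summit in replicate 2 alone and 11786 had none in either list. The median ratio of observed to expected CpG was 0.851 against 0.817 at called genes and 0.688 against 0.358 at genes not called. The medians were therefore closer to those of other genes where genes were called, but the sets not called differ in make-up. Cox5a and Cox7a2, with ratios of 1.14 and 0.83, count here as not called. Both lists had a summit within 1000 bp of their start sites. Among isoform pairs the CpG ratio was 0.11 at Cox8b and 0.84 at Cox8a, 0.33 at Cox7a1 and 0.83 at Cox7a2, and 0.43 at Cox6b2 and 0.81 at Cox6b1. The pair without a peak at either gene went the other way, with 0.56 at Cox7b2 and 0.37 at Cox7b. Whether base composition had a part in the calls was not tested.

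ETS matches were present in 19 of 41 promoter windows of the 40 genes (46.3%), against 22.1% of windows of all called genes and 11.6% of all windows. The share was 48.0% at called genes of the 3 complexes, against those 22.1%, and 43.8% at genes not called, against 6.29% of windows of all genes not called. The 7 matching windows at genes not called belong to Cox10, Cox16, Sco1, Sdhaf1, Sdhaf3 and Surf1. All of these genes had a summit in replicate 2 alone, so the 43.8% does not describe genes without peaks. NRF1 matches were in 17.1% of the 41 windows, against 6.38% of all windows. They included 3 at Sdha and a pair each at Cox6a1 and Uqcrc1. YY1 matches were in 2 windows (4.88%, against 3.12%). Matches to the SP/KLF motif (GGGCGG) were in 63.4% of windows, against 46.2%, but at called genes in 52.0%, against 66.3% of windows of all called genes. Matches to the CCAAT motif were in 43.9%, against 38.2%. The letters TATAAA were in none of 25 windows of called genes, against 6.45% for all called genes, and in 4 of 16 windows of the others (25.0%), against 15.7%. The matches began at base 4 after the start site in Cox8b, 41 after it in Sdhaf3, and at -69 in Cox10 and -221 in Cox7b2, so none was at the usual place of a TATA box. No ETS match overlapped a match to another of these motifs. A match is a description of the letters and shows no binding of the factor.

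**Figure D4:**
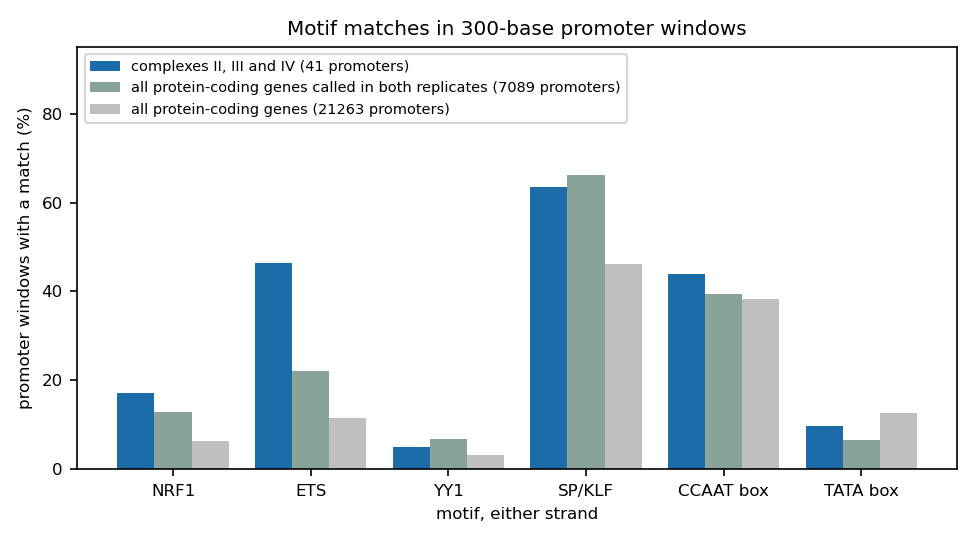
Share of promoter windows with a match to each motif on either strand, in percent, for the 41 windows of complex II, III and IV genes (blue), the 7089 windows of all called genes (green) and all 21263 windows (grey). ETS matches are in 46.3% of the blue, 22.1% of the green and 11.6% of the grey windows.

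Other genes of the same pathway were counted in lists chosen by function. Of 23 further genes for assembly, cytochrome c and associated proteins, 17 were called (73.9%, against the 31.9% of all genes). The highest ranking were Higd1a, a hypoxia-induced regulator of complex IV (7.21-fold in replicate 1 and 11.4-fold in replicate 2), and the assembly gene Coa7 (7.29 and 10.1). Cycs, the gene of somatic cytochrome c, was called (3.56 and 9.83), while Cyct, the testis form, had no summit within the window in either list. Of 13 genes for regulators of respiratory gene transcription, 10 were called (76.9%), against the same 31.9%. Yy1 (8.16 and 11.4) and the mitochondrial transcription factor gene Tfb2m (7.39 and 10.1) ranked highest. Nrf1 (3.07 and 7.17) and the ETS factor gene Gabpa (4.33 and 10.6) were also called. The coactivator genes Ppargc1a and Ppargc1b had summits in replicate 2 alone, and Gabpb1 had none within the window.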

How the data were processed

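The submitters' processing notes name mm10 as build and, without versions or order, Bowtie2, MACS2, ChIPseeker, cutadapt, Trimmomatic and FastQC. The cutoff and control of peak calling are not given in the sources used here. Per the labels' protocols, input and ChIP libraries both started from 10 ng of DNA and had 16 amplification cycles. In the authors' peak lists, fold enrichment is a ratio on a linear scale. The −log10 p and q columns are as the authors deposited them, and the deposited score column was not used. Each library has its own list of peaks.

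Positions were made 1-based. Genes and bounds are those of GRCm38.p6 (RefSeq). Each gene took its strongest peak by fold enrichment, and genes were ranked by the lower of their percentiles in the lists. Values are given for the 4 highest-ranking called genes of each complex, genes in 1 list only and isoform pairs, and further genes were named after their values were seen. The genes, lists and rules were chosen with earlier results of these data known. The labels do not state whether the replicates are separate animals, and the spread between them may be technical. The matching of summits to gene ends was tested on simulated summits, and the other steps were not. Python 3.11.15, numpy 2.4.6 and pandas 2.3.3 were used.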

Additional observations from a re-analysis of the deposited data

Results flagged for a closer look

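Peaks on the mitochondrial genome, which encodes cytochrome b of complex III and the core subunits of complex IV, were outside the comparisons above, and each list held 3 of them. The peak that reached COX1, which encodes a core subunit of complex IV, was enriched 2.05-fold in replicate 1, where it also covered ND1 and ND2, and 1.76-fold in replicate 2. The peak that covered CYTB, the cytochrome b gene, was enriched 2.23-fold in replicate 1 and 1.66-fold in replicate 2. It also covered ND5 and ND6, and in replicate 2 ND4 as well. Each value is that of the summit of a wide peak, which need not lie in the gene named. The replicate 1 peak that reached COX1 ran from 56 to 6566 with its summit at 3336. The replicate 2 peak that covered CYTB ran from 10889 to 15814 with its summit at 11131. These peaks were 1254 to 6511 bp wide, and none reached COX2 or COX3. No control library was analysed here, so the level of such peaks without the tagged protein is not known.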

How the results depend on the processing

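Of 84 recounts, 18 moved by over 1.5 times. Some of the other 66 could not move, since the isoform count was already 0 and no gene had a summit in replicate 1 alone. With fold enrichment of at least 5 in both lists, the counts were 8 of 52 genes, 5 subunit genes, 3 assembly genes, 2 complex II, 3 complex III and 3 complex IV genes. With −log10 q of at least 5, subunit genes fell to 12 and complex II genes to 3. When summits near several genes were left out, 18 genes, 11 subunit, 7 assembly, 1 complex II and 6 complex III genes were called, because genes with close neighbours can seldom be called this way. Summits within 200 bp of each other left 3 complex II genes, and a 3000 bp window gave 2 tissue-restricted isoforms, Cox4i2 and Cox6a2. With 1 replicate left out, the counts were 33 to 45 for all genes, 14 to 22 for assembly genes, 5 to 8 for complex II and 0 to 2 for tissue-restricted isoforms, and the higher values came without replicate 1. Scoring start sites beside gene ends was chosen after seeing the data. No paired analysis was possible because the input libraries were not analysed here and the counts come from no test. Depth is unknown, so a gene without a summit in the shorter list may lie below what that library could show.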

Other observations

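Of 6 pseudogenes that match the symbol rule, none had a summit within 1000 bp in either list, against 1.01% of all pseudogenes in replicate 1 and 2.20% in replicate 2, so 0 of 6 is near the background. The nearest was 2435 bp away, at Cox20b in replicate 1. In the interior of genes, over 1000 bp from both ends, peaks shared by the replicates were found in Cox5a and Cox7a2 alone of the 43 genes long enough to be searched (4.65%), against 10.8% of all protein-coding genes of such length. Cox5a held a further shared peak downstream of its start site, enriched 4.83-fold in replicate 1 (chr9:57523799-57524241) and 5.31-fold in replicate 2.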
